A study of Mus musculus with 8 samples.

Results

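The strongest A bins are the 955 bins of 500 kb, of 4780 kept on the 19 autosomes, that hold the top 20% of the ranking by eigenvector 1 on their chromosome. Eigenvector 1 is the leading axis of the correlation matrix of a chromosome's contact map. The bins were chosen by this measured value, taken from contacts within chromosomes in the 2 SCR AMO samples, with a sign that matches the study's own compartment track. Contacts between chromosomes did not enter the choice, but the SCR AMO libraries did. These bins are described here by their trans contacts, which are contacts between bins on different chromosomes. The maps come from mouse embryonic stem cells (mESCs), which were electroporated with an antisense morpholino oligo against L1 RNA (L1 AMO) or with a scramble oligo (SCR AMO), both at 5 nmol per 100 μl. Transfected cells were sorted at 12 h and harvested at 36 h, with 2 samples per group. Both groups grew in serum with leukemia inhibitory factor, and the labels do not name the line. The labels also describe the removal of a zona pellucida from embryonic cells during extraction, which is a step for embryos, not cultured cells.

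Chromosomes fold so that active, gene-rich chromatin (compartment A) and inactive chromatin (compartment B) each contact their own kind. A chromatin tends to lie in the nuclear interior, where A regions of different chromosomes meet around structures such as nuclear speckles. B chromatin lies mostly at the lamina and the nucleolus. L1 elements are long interspersed retrotransposons that are dense in B chromatin, and their RNA is bound to chromatin in mESCs. Hi-C ligates DNA ends that lie close together, so that a count of read pairs joining 2 bins reports how often they were near each other.

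By their labels the 2 groups differ in the oligo given, so both sequences are shown, 5′ to 3′ and in lower case, as the study lists them.
L1 AMO: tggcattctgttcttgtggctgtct
SCR AMO: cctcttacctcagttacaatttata
Both are 25 bases long.

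The direction of the main comparison turned on how the counts were scaled, and both scalings are given throughout. In genome-wide balancing, every bin is scaled to the same total of contacts within and between chromosomes. Strong A bins then contacted each other less in L1 AMO than in SCR AMO. In trans-only balancing, every bin is scaled to the same total of contacts with other chromosomes, and strong A bins then contacted each other more in L1 AMO. The first scaling keeps differences between bins in how much of their contact is trans. The second shows how contacts with other chromosomes were shared out among partners. The observed/expected values given below are divided by the mean of each pair of chromosomes, so a trans loss common to all bins cancels. Trans contacts were 22.3% and 22.8% of all contacts in SCR AMO and 15.8% and 14.2% in L1 AMO.

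Libraries of the groups also stood apart in ways that were not tied to compartments. Depth ran from 22252054 to 112381720 contacts per sample, the lowest and the highest both in SCR AMO. Chromosome 1 took 7.48% and 7.51% of all contact ends in the SCR AMO samples but 10.2% and 10.4% in the L1 AMO samples. Chromosome 14 took 4.13% and 4.14% in SCR AMO and 5.45% and 5.52% in L1 AMO. On chromosome 6, the stretch from 60 to 80 Mb took 0.459% and 0.470% in SCR AMO and 0.703% and 0.730% in L1 AMO. In addition, 2 pairs of windows stood out. The window chr1:130000001-132500000 (mm9) had 29 and 12 contacts with chr14:97500001-100000000 in SCR AMO, and 1317 and 958 in L1 AMO. These were 0.969 and 1.78 times the count expected from trans coverage in SCR AMO, and 43.4 and 39.2 times in L1 AMO. The window chr4:117500001-120000000 reached 9.80 and 9.59 times the expected count with chr9:35000001-37500000 in L1 AMO, against 0.839 and 0.801 times in SCR AMO. A difference in chromosome copy number or structure between the cells of the groups was not tested, and it cannot be told apart from the AMO. The totals of both SCR AMO matrices also depart from the study's own sequencing summary, one above and one below it, while those of L1 AMO are close to it. Any difference in the making of the matrices is confounded with the AMO in the same way, and they cannot be told apart. Results are therefore also given without chromosomes 1, 4, 6, 9 and 14, which leaves 663 strong A bins on 14 autosomes.

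**Figure D1:**
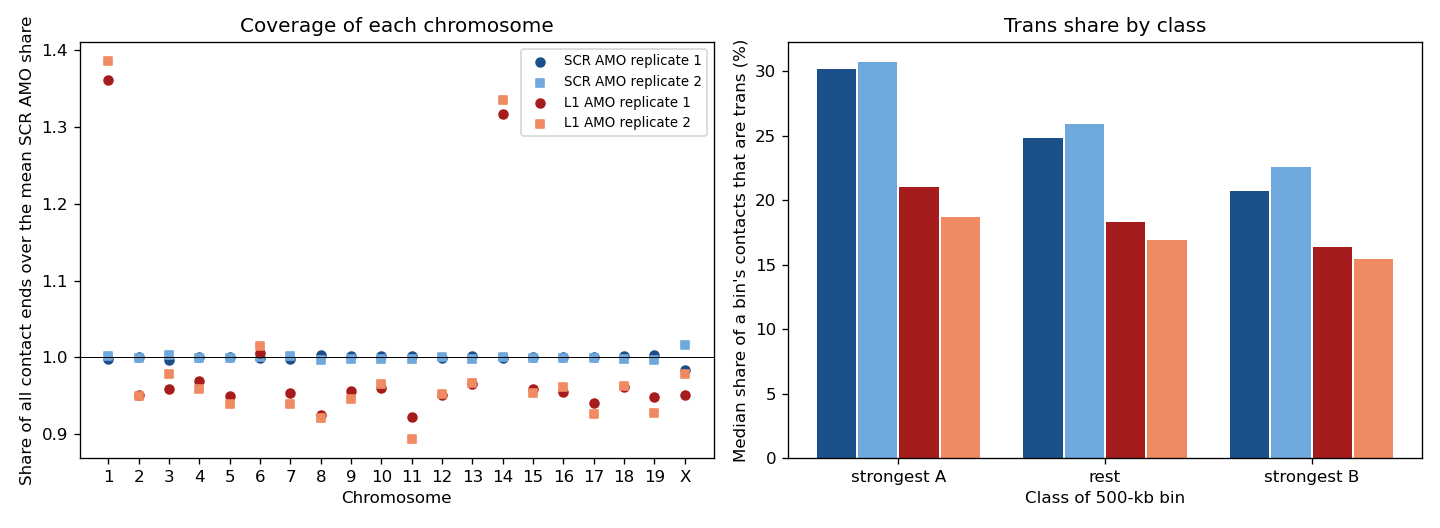
Left, share of all contact ends on each chromosome divided by the mean SCR AMO share; points are the 4 samples. Right, bars give the median percent of a bin's contacts that are trans, for strong A bins, strong B bins and the rest, in the 4 samples. Chromosomes 1 and 14 lie well above 1 in both L1 AMO samples, and the trans share of strong A bins is 30.2% and 30.7% in SCR AMO but 21.1% and 18.7% in L1 AMO.

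Strong A bins joined into runs along the chromosomes. They formed 263 blocks, of which 190 held at least 2 bins and 73 a single bin. The longest block was 15.5 Mb (31 bins) on chromosome 5. The values that chose the bins ran down to a last member with an eigenvector 1 of 0.639 to 0.791, depending on the autosome, and the first bin left out had 0.634 to 0.790. Ranked by the L1 AMO maps instead, 832 of the 955 bins (87.1%) stayed in the top 20%, and 954 kept a value above 0. Gene density, which would check the A label, was not used here, because no mm9 annotation was at hand.

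A strong A bin spent more of its contacts on other chromosomes than other bins did. Over strong A bins in SCR AMO, the median trans share was 30.2% and 30.7%. It reached 20.7% and 22.5% over the strongest B bins, which are the lowest 20% of each ranking. In L1 AMO the median trans share was 21.1% and 18.7% in strong A bins and 16.4% and 15.4% in strong B bins. The ratio of the 2 classes went from 1.46 and 1.36 in SCR AMO to 1.29 and 1.22 in L1 AMO, with no overlap between groups. Of all ends of trans contacts, strong A bins held 28.8% and 27.8% in SCR AMO and 26.3% and 24.3% in L1 AMO. By construction, genome-wide balancing keeps such a difference in trans share between bins, and trans-only balancing removes it.

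Contacts among strong A bins were counted over 430501 pairs of bins on different autosomes, which are 3.99% of all such pairs. They took 11.1% and 10.2% of trans contacts in SCR AMO and 9.82% and 8.50% in L1 AMO. The observed/expected value (O/E) divides the balanced contact frequency of a bin pair by the mean of its pair of chromosomes, so that a value of 1 marks no preference. With genome-wide balancing, the mean O/E of A-A pairs was 2.16 and 2.02 in SCR AMO replicates 1 and 2 and 2.02 and 1.86 in L1 AMO replicates 1 and 2. The group means were 2.09 ± 0.0983 (SD, n = 2) and 1.94 ± 0.112 (SD, n = 2), a difference of -0.150 or -7.18%. The groups were separated by only 0.00161, between SCR AMO replicate 2 and L1 AMO replicate 1, and the difference between group means was about as large as that between replicates of one group. Without the 5 chromosomes named above the groups overlapped, by 0.00176, and the difference was -0.154. The difference was -0.0807 without SCR AMO replicate 1, -0.220 without SCR AMO replicate 2, -0.229 without L1 AMO replicate 1 and -0.0711 without L1 AMO replicate 2.

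With trans-only balancing the order turned. The mean A-A O/E was then 1.51 and 1.46 in SCR AMO and 1.55 and 1.53 in L1 AMO. The group means were 1.48 ± 0.0356 (SD, n = 2) and 1.54 ± 0.0129 (SD, n = 2), and the difference was 0.0587 or 3.96%. The groups lay 0.0243 apart, and the difference stayed at 0.0581 without the 5 chromosomes. With no balancing, where counts were divided by the product of the bins' trans coverage, the values were 1.26 and 1.26 in SCR AMO and 1.36 and 1.40 in L1 AMO. An exact permutation test over 2 against 2 samples cannot give a two-sided p below 0.333, so none of these differences was tested alone.

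The partners of the strong A bins showed where the scalings part. Strong A bins met strong B bins on other chromosomes at an O/E of 0.619 and 0.676 in SCR AMO and 0.641 and 0.663 in L1 AMO, with genome-wide balancing. These values overlapped between the groups, as did those with trans-only balancing (0.642 and 0.688 against 0.656 and 0.678). With the remaining bins, strong A bins had an O/E of 1.15 and 1.12 in SCR AMO and 1.07 and 1.03 in L1 AMO, which is 7.48% lower. With trans-only balancing these contacts were 0.951 and 0.952 in SCR AMO and 0.932 and 0.931 in L1 AMO, which is 2.08% lower, again with no overlap between groups. Contacts of strong A bins with the middle of the ranking were lower under both scalings. Those among strong A bins were lower under one and higher under the other. Trans-only balancing fixes each bin's trans total, so the 2.08% fall is tied to the rise among strong A bins and is not a separate result.

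Partner bins were next cut into deciles of the ranking, from the B end (decile 1) to the A end (decile 10). With genome-wide balancing the change of contacts with strong A bins was 1.89% in decile 1, -8.87% in decile 5 and -6.91% in decile 10. With trans-only balancing it was 1.11% in decile 1, -5.05% in decile 5 and 4.60% in decile 10. Decile 5 had the lowest change of the 10 under both scalings. Among the strong A bins themselves, pairs of bins in decile 10 changed by 5.26% and pairs in decile 9 by 2.69% with trans-only balancing. The same pairs changed by -6.60% and -7.74% with genome-wide balancing.

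**Figure D2:**
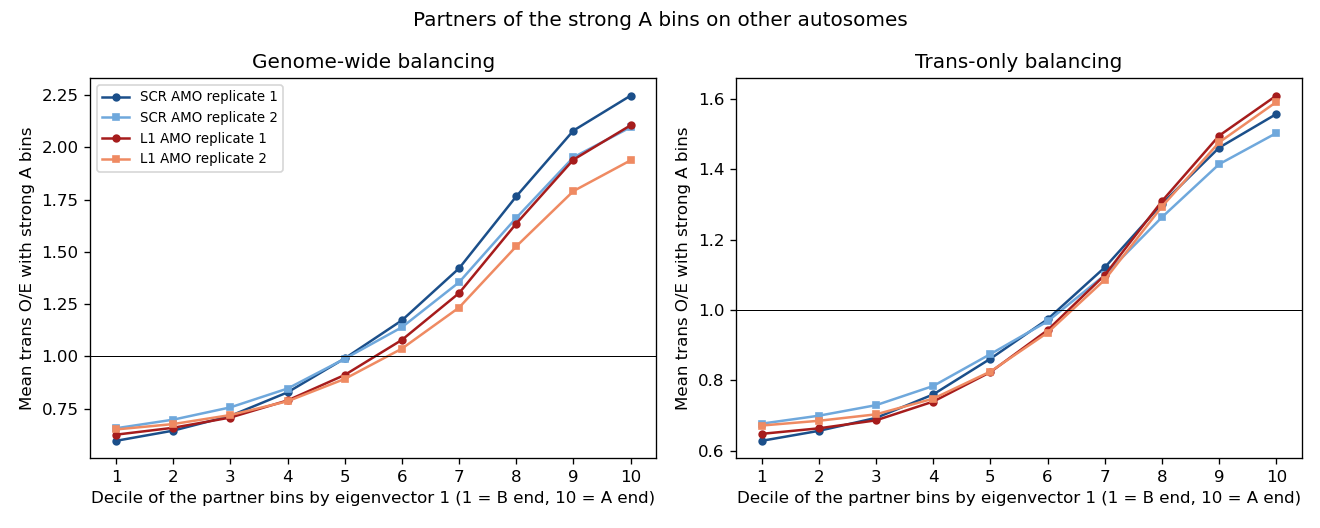
Mean trans O/E between strong A bins and partner bins in each decile of the ranking by eigenvector 1, from the B end (1) to the A end (10), in the 4 samples, under both scalings. With trans-only balancing the L1 AMO lines lie below the SCR AMO lines at decile 5 (0.824 and 0.825 against 0.862 and 0.875) and above them at decile 10 (1.61 and 1.59 against 1.56 and 1.50), whereas with genome-wide balancing the mean change is negative at both.

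Strong A bins differed among themselves in how much they met each other. With genome-wide balancing, the A-A O/E of a single bin ran from 1.21 through a median of 2.09 to 3.96 in SCR AMO replicate 1. In SCR AMO replicate 2 it ran from 1.24 through 1.96 to 3.57. In L1 AMO replicate 1 it ran from 1.09 through 1.97 to 3.51, and in L1 AMO replicate 2 from 1.01 through 1.81 to 2.97. All 955 bins were above 1 in every sample under this scaling, and each had a higher O/E with strong A than with strong B bins. With trans-only balancing, 954 and 952 of them were above 1 in the L1 AMO samples, and all in SCR AMO. Single bins kept their order well. Across the 955 bins, which share libraries and contact each other, Pearson's r of the A-A O/E was 0.984 between the SCR AMO samples, 0.983 between the L1 AMO samples and 0.943 to 0.964 between samples of different groups.

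Bins with high A-A contact were also those with a high trans share (r = 0.751 over the 955 bins in SCR AMO, where both measures use the same counts). Eigenvector 1 itself, from contacts within chromosomes, had r = 0.177 with A-A contact among these bins. It chose the bins, so its range is cut and this r cannot show how weak the relation is. With genome-wide balancing, pairs of bins in decile 10 had an O/E of 2.34 and 2.18 in SCR AMO. Pairs in decile 9 had 2.01 and 1.89. Bins near the distal end of their chromosome stood higher. In the 96 strong A bins within 10 Mb of the distal end, the mean A-A O/E was 2.41 and 2.22 in SCR AMO and 2.26 and 2.07 in L1 AMO. In the 525 bins over 50 Mb from that end it was 2.08 and 1.96 in SCR AMO and 1.94 and 1.79 in L1 AMO. The 24 strong A bins within 10 Mb of the proximal end also stood above those 525 bins. They had 2.18 and 2.08 in SCR AMO and 2.13 and 2.00 in L1 AMO. The median log2 ratio of L1 AMO over SCR AMO in the distal bins was -0.10 with genome-wide and 0.10 with trans-only balancing. In the bins far from the end it was -0.12 and 0.04.

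Among blocks of at least 2 strong A bins, 4 of the 5 with the highest A-A contact lay near distal ends, the exception being on chromosome 15. The block chr4:147500001-149500000 led, with an A-A O/E of 3.23 and 2.94 in SCR AMO and 2.86 and 2.63 in L1 AMO. It was followed by chr15:81000001-82000000, with 3.07 and 2.84 in SCR AMO and 2.90 and 2.63 in L1 AMO, and by chr2:179500001-181500000, with 3.02 and 2.74 in SCR AMO and 2.65 and 2.40 in L1 AMO. The next were chr4:151000001-152000000, at 2.94 and 2.66 in SCR AMO, and chr10:126500001-128000000, at 2.83 and 2.67. The groups did not overlap in the chr4:147500001-149500000, chr2 and chr10 blocks. With trans-only balancing, the first 3 blocks were higher in both L1 AMO samples, at 1.89 and 1.89 against 1.82 and 1.76 for the leading one. Only in the chr10 block did the groups then overlap (1.62 and 1.56 in SCR AMO against 1.58 and 1.61 in L1 AMO) among these 5.

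The 5 blocks with the lowest A-A contact showed no rise with groups apart under either scaling. The lowest by the SCR AMO mean was chr1:129500001-130500000, with an A-A O/E of 1.37 and 1.35 in SCR AMO and 1.32 and 1.17 in L1 AMO, and its second bin is the first of the window with many contacts to chromosome 14. The block chr8:35000001-36000000 had 1.39 and 1.38 in SCR AMO and 1.28 and 1.18 in L1 AMO. The block chr3:68000001-69500000 had 1.41 and 1.34 in SCR AMO and 1.25 and 1.12 in L1 AMO. The other 2 were chr10:69000001-70000000, at 1.42 and 1.33 in SCR AMO and 1.35 and 1.26 in L1 AMO, and chr1:121000001-122500000, at 1.39 and 1.34 in SCR AMO and 1.32 and 1.19 in L1 AMO. With trans-only balancing, the chr3 block had 1.16 and 1.14 in SCR AMO and 1.09 and 1.04 in L1 AMO, and the chr1:129500001-130500000 block 1.13 and 1.11 against 1.06 and 1.01. The chr8 block had 1.17 and 1.17 against 1.16 and 1.13, and the chr1:121000001-122500000 block 1.25 and 1.23 against 1.22 and 1.16. These 4 of the 5 blocks were thus lower in L1 AMO with groups apart under both scalings. The same count over all blocks is not given here. Over single bins it was 9.95% of strong A bins and 25.6% of all bins. Both chromosome 1 blocks are also part of the block pairs with chromosome 14 that rose most in L1 AMO.

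Bin by bin, the L1 AMO values were lower, with groups apart (both below both SCR AMO values), in 505 of the 955 strong A bins (52.9%) with genome-wide balancing. Over all 4780 bins, by the same count of contacts with strong A bins, the share was 49.5%, so strong A bins were close to the background. They were higher with groups apart in 8 strong A bins, and in 6.80% of all bins. With trans-only balancing, 505 strong A bins were higher with groups apart, against 23.4% of all bins, and 95 were lower, against 28.7% of all bins. The median log2 ratio was -0.11 over strong A bins and -0.09 over all bins with genome-wide balancing. With trans-only balancing it was 0.06 over strong A bins and -0.01 over all bins.

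Both scalings could be read together for each bin. In 156 strong A bins (16.3%) the groups were apart in both scalings with opposite directions, lower with genome-wide and higher with trans-only balancing, as in 5.23% of all bins. In 95 strong A bins (9.95%) both scalings put L1 AMO below SCR AMO with groups apart, as in 25.6% of all bins. Of these, 20 lay on chromosome 3 (of its 63 strong A bins), 19 on chromosome 1 (of 77) and 7 on chromosome 2 (of 71). The same count over all bins of each chromosome is not given here. In 8 strong A bins both scalings put L1 AMO above, as in 4.35% of all bins. The log2 ratios of the replicate numbers taken apart were related across the 955 bins (r = 0.663 with genome-wide and 0.611 with trans-only balancing).

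**Figure D3:**
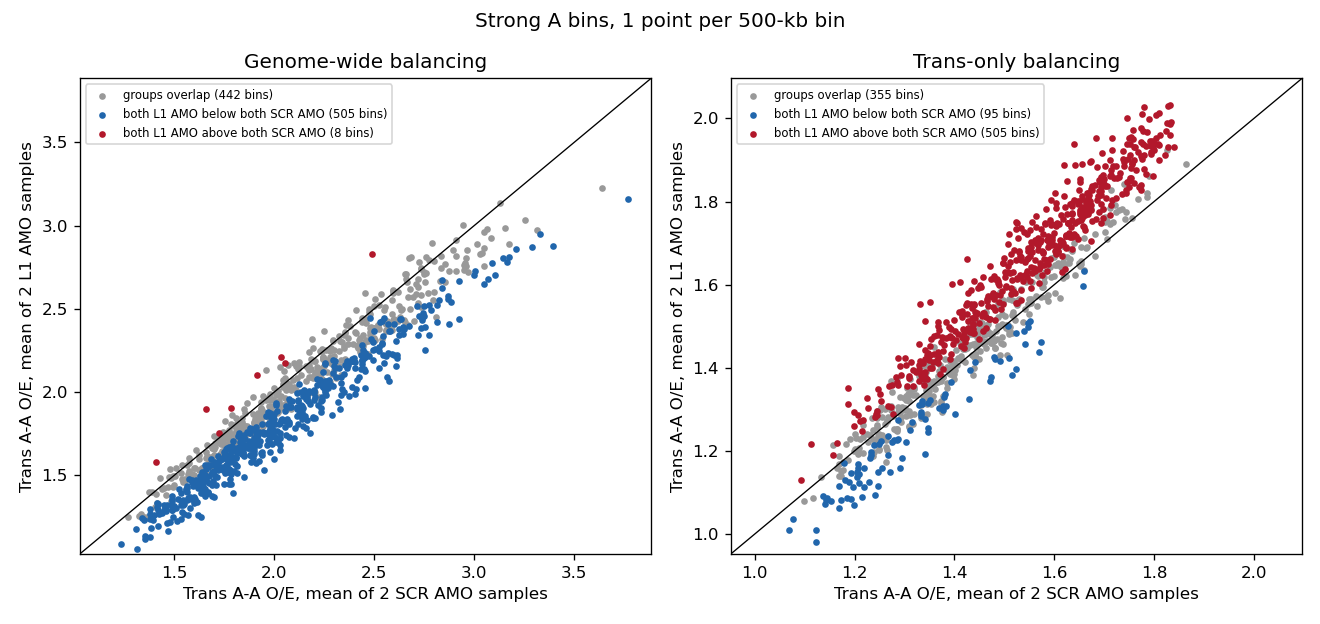
Trans A-A O/E of each of the 955 strong A bins, mean of the SCR AMO samples (x axis) against mean of the L1 AMO samples (y axis), with genome-wide (left) and trans-only balancing (right); the line marks equal values. With genome-wide balancing 505 bins lie below the line with groups apart and 8 above it, and with trans-only balancing 95 lie below and 505 above.

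Counts of each bin's contacts with all strong A bins on other autosomes were compared over all 4780 bins by the quasi-likelihood test of edgeR, with Benjamini-Hochberg adjustment and a threshold of 0.05. The test takes the count expected from trans coverage as its offset. It thus asks about a bin's contacts with strong A bins relative to the share of trans coverage that strong A bins held. That share of trans ends was 28.8% and 27.8% in SCR AMO and 26.3% and 24.3% in L1 AMO. A bin called higher therefore need not have sent a larger share of its trans contacts to strong A bins. In SCR AMO the observed count was a median of 1.30 and 1.29 times the expected one over strong A bins, and in L1 AMO 1.38 and 1.41 times. By this test 557 of the 955 strong A bins were higher in L1 AMO, against 17.1% of all bins, and 3 were lower, against 3.18% of all bins. The median log2 ratio was 0.10 over strong A bins and 0.02 over all bins. Of the strong B bins, 12 were higher and 6 lower. Of the remaining bins, 246 were higher and 143 lower.

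The same test with an offset from genome-wide balancing gave a median below 0. Then 6 strong A bins were higher, against 4.50% of all bins, and 116 were lower, against 15.8% of all bins, so a smaller share of strong A bins (12.1%) than of all bins was called lower, with a median log2 ratio of -0.10 over strong A bins and -0.06 over all bins. Without the 5 chromosomes, 278 of 663 strong A bins were higher and 3 lower with the trans-coverage offset, against 394 higher and 64 lower of all 3317 bins. With the genome-wide offset, 0 strong A bins were then higher and 32 lower (edgeR, 130 at an unadjusted p under the threshold in either direction), against 7 higher and 238 lower of all bins, so the share called lower was 4.83% of strong A bins and 7.18% of all. DESeq2 with the trans-coverage offset called 326 strong A bins higher and 0 lower (463 had an unadjusted p under the threshold, in either direction), against 440 higher and 1 lower of all 4780 bins. Without SCR AMO replicate 1, the deepest library, edgeR called 206 strong A bins and 298 of all bins higher.

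By chromosome, the calls with the trans-coverage offset were uneven, and they were uneven among the other bins too. On chromosome 11, 44 of 48 strong A bins were higher in L1 AMO (91.7%), against 45 of the 190 other bins (23.7%). On chromosome 19 it was 21 of 23 strong A bins (91.3%) and 12 of 94 others (12.8%). On chromosome 4 it was 51 of 60 (85.0%) and 19 of 242 (7.85%), and on chromosome 17 it was 31 of 37 (83.8%) and 12 of 148 (8.11%). Chromosomes 3 and 1 had low shares in both classes, with 8 of 63 strong A bins (12.7%) and 1 of 251 others (0.398%) on chromosome 3, and 23 of 77 (29.9%) and 6 of 309 (1.94%) on chromosome 1. With the genome-wide offset, chromosome 3 had the most strong A bins called lower, 25 of 63 (39.7%), where 50 of its 251 other bins (19.9%) were lower. Chromosome 2 followed with 21 of 71 strong A bins (29.6%) and 55 of 284 others (19.4%). Unlike the O/E, counts against this offset are not relative to the mean of each pair of chromosomes. On chromosomes 1 and 14, whose coverage was higher in L1 AMO, 0 of 77 and 0 of 48 strong A bins were called lower. The balanced A-A O/E of these chromosomes nevertheless changed by -11.2% and -9.27%, so this ranking of chromosomes holds for the offset only.

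The 5 strong A bins with the largest rise by the trans-coverage test were spread over 5 chromosomes. The bin chr15:78000001-78500000 had 6063 and 1099 contacts with strong A bins in SCR AMO, which were 1.41 and 1.38 times the expected count. In L1 AMO it had 2180 and 1301 contacts, 1.69 and 1.67 times the expected count, and its log2 ratio was 0.26 ± 0.031 (SE, edgeR adjusted p = 1.16e-13). The bin chr19:3500001-4000000 went from 1.30 and 1.36 to 1.54 and 1.60 times the expected count (log2 ratio 0.26 ± 0.029, edgeR adjusted p = 3.15e-15). The bins chr8:123500001-124000000, chr17:28500001-29000000 and chr12:109500001-110000000 had log2 ratios of 0.26, 0.25 and 0.25. With the genome-wide offset these 5 bins had log2 ratios of 0.01 to 0.13 and none was called. The chr19 and chr12 bins, however, were higher in both L1 AMO samples also by their genome-wide balanced O/E. The chr19 bin had 2.50 and 2.48 in SCR AMO against 2.90 and 2.76 in L1 AMO. The chr12 bin had 2.08 and 1.99 in SCR AMO against 2.23 and 2.19 in L1 AMO.

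Only 3 strong A bins were lower by the trans-coverage test. In chr7:4000001-4500000 the count fell from 1.14 and 1.11 to 1.01 and 1.09 times the expected one (log2 ratio -0.13 ± 0.035, edgeR adjusted p = 0.0052), and the genome-wide offset gave -0.32 (edgeR adjusted p = 0.000114). In chr16:16500001-17000000 it fell from 1.18 and 1.21 to 1.08 and 1.15 times (log2 ratio -0.10 ± 0.033, edgeR adjusted p = 0.0139), with -0.28 by the genome-wide offset (edgeR adjusted p = 0.00951). These 2 bins were thus lower in L1 AMO under both offsets. The third, chr1:129500001-130000000, went from 1.06 and 1.06 to 0.991 and 0.975 times (log2 ratio -0.10, edgeR adjusted p = 0.0476). With the genome-wide offset it had 0.10 and was not called (edgeR adjusted p = 0.238). Its genome-wide balanced A-A O/E was lower in both L1 AMO samples, at 1.31 and 1.17 against 1.38 and 1.37 in SCR AMO. The bin belongs to the block that reaches into the window with the chromosome 14 contacts.

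At the other end, the 8 strong A bins above under both scalings of the O/E were looked up after their values were seen. The bin chr4:46000001-46500000 had a genome-wide balanced A-A O/E of 1.76 and 1.56 in SCR AMO and 1.93 and 1.86 in L1 AMO. It was called higher with both offsets, with a log2 ratio of 0.22 (edgeR adjusted p = 1.43e-08) from trans coverage and of 0.20 (edgeR adjusted p = 0.0462) from genome-wide balancing. The other 7 bins, chr19:3500001-4000000 among them, were called with the trans-coverage offset but not with the genome-wide one. Among the bins whose genome-wide balanced O/E was lower in L1 AMO with groups apart, chr3:116000001-116500000 differed most, with 1.63 and 1.64 in SCR AMO and 1.35 and 1.15 in L1 AMO. Its log2 ratio by the trans-coverage test was -0.05 (edgeR adjusted p = 0.548), and by the genome-wide offset -0.35 (edgeR adjusted p = 2.99e-06).

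Averaged over the strong A bins of an autosome, A-A contact was highest on chromosome 4 and lowest on chromosome 18. Chromosome 4 had a genome-wide balanced O/E of 2.52 and 2.31 in SCR AMO and 2.35 and 2.14 in L1 AMO, and chromosome 18 had 1.86 and 1.78 in SCR AMO and 1.79 and 1.67 in L1 AMO. The largest change was that of chromosome 3, from 2.07 and 1.93 to 1.84 and 1.68 (-12.3%), and the smallest that of chromosome 19, from 2.20 and 2.10 to 2.19 and 2.06 (-1.06%). With genome-wide balancing the mean was lower in L1 AMO on 19 of 19 autosomes, within both replicate numbers, and the groups were apart on 8 of them. The same count by autosome is not given here for other classes of bins. With trans-only balancing, the groups were apart on 17 of 19 autosomes with L1 AMO higher and on 0 with L1 AMO lower. The exceptions were chromosomes 1 and 3, where the changes were 0.526% and -1.22%. The highest change by that scaling was 7.62%, on chromosome 15. Longer autosomes had the lower changes, with r = -0.732 for length against percent change over the 19 autosomes with genome-wide and r = -0.523 with trans-only balancing. The autosomes share the libraries and each other as partners.

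**Figure D4:**
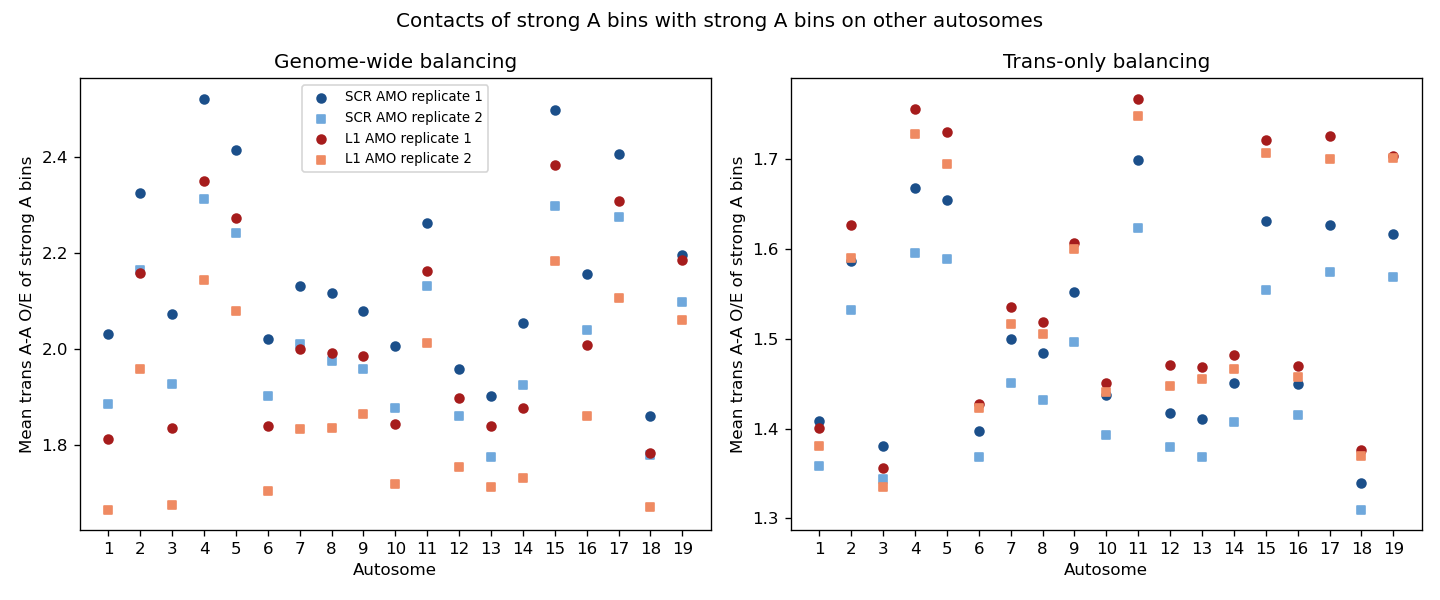
Mean trans A-A O/E of the strong A bins of each autosome in the 4 samples, with genome-wide (left) and trans-only balancing (right). On the left the L1 AMO points lie below the SCR AMO points of the same replicate number on all 19 autosomes, and on the right both L1 AMO points lie above both SCR AMO points on 17.

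All 171 pairs of autosomes had a mean A-A O/E above 1 in SCR AMO with genome-wide balancing. The highest pair was chromosomes 4 and 15, with 3.09 and 2.83 in SCR AMO and 3.04 and 2.70 in L1 AMO, followed by chromosome 4 with chromosome 5 and with chromosome 17. The lowest were chromosomes 13 and 18, with 1.68 and 1.53 in SCR AMO and 1.68 and 1.62 in L1 AMO, together with 12 and 13 and with 18 and 19. The groups were apart with L1 AMO lower in 83 pairs and with L1 AMO higher in 1 pair. With trans-only balancing, L1 AMO was higher with groups apart in 104 pairs and lower in 5. These counts are not given here for other classes of bins. With genome-wide balancing, contacts of strong A bins with the remaining bins were 7.48% lower in L1 AMO, against 7.18% for A-A contacts.

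Summed counts were tested for the pairs of autosomes in the same way, over 1539 combinations of pairs and classes. With the trans-coverage offset, 120 of 171 A-A sums were higher in L1 AMO, against 11.3% of all sums, and 0 were lower, against 12.0% of all sums (edgeR, with 134 at an unadjusted p under the threshold; DESeq2 called 84 higher and 0 lower, against 104 and 49 of all sums). The largest rise was that of chromosomes 1 and 14, from 1.14 and 1.13 to 1.43 and 1.49 times the expected count (log2 ratio 0.36 ± 0.018, edgeR adjusted p = 1.01e-18). It was followed by chromosomes 17 and 19, from 1.61 and 1.60 to 1.91 and 2.03 times (log2 ratio 0.29 ± 0.036, edgeR adjusted p = 6.92e-08), and by chromosomes 18 and 19 (log2 ratio 0.29 ± 0.065, edgeR adjusted p = 0.00102). Of the 18 pairs with chromosome 3, 1 was called higher, and of the 18 pairs with chromosome 19, 13 were. Without the 5 chromosomes, 62 of 91 A-A sums were higher and 0 lower (edgeR, with 68 at an unadjusted p under the threshold), against 87 higher and 85 lower of all 819 sums. Without SCR AMO replicate 1, 65 of the 171 sums were higher, against 81 of all 1539, and without L1 AMO replicate 2, 70 were, against 97.

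With the genome-wide offset, 1 A-A sum was higher, against 15.9% of all sums, and 55 were lower, against 18.3%. The one that rose was again that of chromosomes 1 and 14 (log2 ratio 0.52 ± 0.048, edgeR adjusted p = 1.17e-24). Over all bins, contacts between these chromosomes were 1.04 and 1.06 times the expected count in SCR AMO and 1.42 and 1.43 times in L1 AMO. Their A-A O/E, which is relative to that pair of chromosomes, was 1.87 and 1.70 in SCR AMO and 1.48 and 1.38 in L1 AMO. Among the 55 that fell, 15 involved chromosome 3. The largest falls were those of chromosome 3 with chromosome 17 (log2 ratio -0.28 ± 0.064, edgeR adjusted p = 0.000143), with chromosome 11 (-0.25) and with chromosome 4 (-0.25). The trans-coverage offset gave these pairs -0.02, 0.04 and 0.01.

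**Figure D5:**
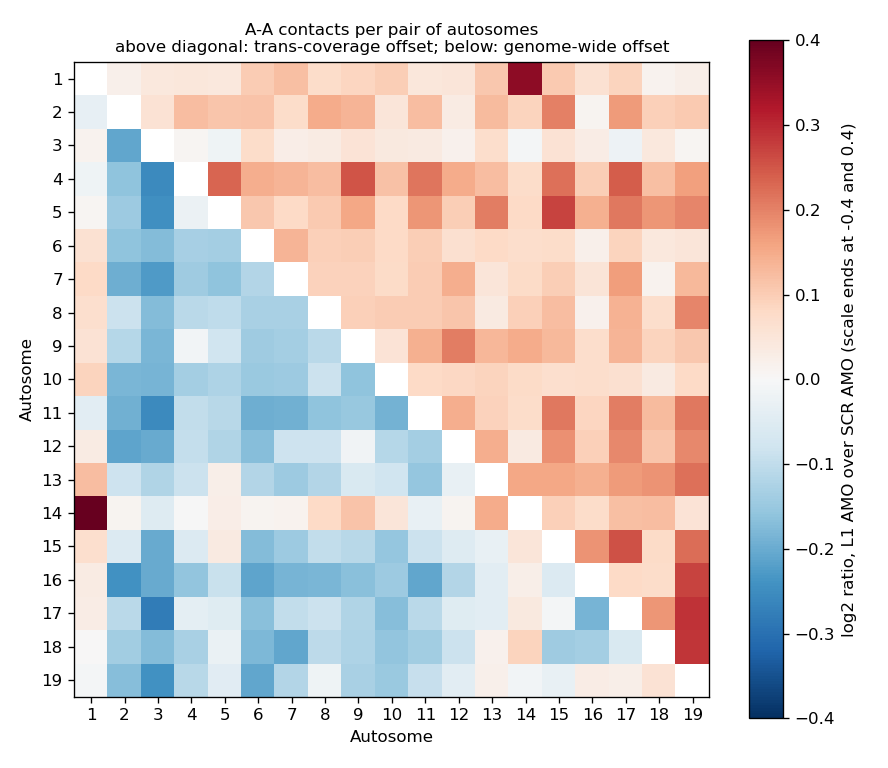
log2 ratio of A-A counts, L1 AMO over SCR AMO, for each pair of autosomes, with the trans-coverage offset above the diagonal and the genome-wide offset below it. Above the diagonal most values are above 0 (120 sums called higher, 0 lower), below it most are below 0 (1 higher, 55 lower), and chromosomes 1 and 14 stand out in both.

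Single pairs of strong A blocks were called in a small share of cases. Of 32604 pairs of strong A blocks on different autosomes, 19563 had a mean of at least 10 contacts. Over all 249881 block pairs with that many contacts, edgeR with the trans-coverage offset called 138 A-A pairs higher in L1 AMO, against 0.242% of all pairs, and 0 lower, against 0.0240% of all pairs (1850 A-A pairs had an unadjusted p under the threshold in either direction). DESeq2 called 19 A-A pairs higher and 0 lower, against 148 and 0 of all pairs. Of the 138, 21 joined chromosomes 1 and 14, from 161 such pairs tested. Without the 5 chromosomes, 40 of 9234 A-A pairs were higher and 0 lower, against 74 higher and 5 lower of all 122823 pairs. Leaving out SCR AMO replicate 1, L1 AMO replicate 1 or L1 AMO replicate 2 gave 31, 71 and 61 A-A pairs higher, against 152, 375 and 402 of all pairs. With the genome-wide offset, 29 A-A pairs were higher, against 0.455% of all pairs, 26 of them between chromosomes 1 and 14, and 39 were lower, against 0.0884%.

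The 5 A-A block pairs with the largest rise all joined chromosomes 1 and 14. The block chr1:129500001-130500000 had 10 and 0 contacts with chr14:99500001-100000000 in SCR AMO and 75 and 44 in L1 AMO (log2 ratio 3.47 ± 0.355, edgeR adjusted p = 5.31e-19). Away from the 5 chromosomes the rises were smaller, and the 3 largest were looked up after their values were seen. The largest was that of chr5:35000001-35500000 with chr10:75000001-78000000, from 32 and 7 contacts in SCR AMO (1.11 and 1.30 times the expected count) to 22 and 16 in L1 AMO (2.71 and 3.10 times). Its log2 ratio was 1.32 ± 0.345 (edgeR adjusted p = 0.0494), and the genome-wide offset gave 1.04 (edgeR adjusted p = 0.182). The next were chr8:126500001-127500000 with chr18:64500001-66500000, at a log2 ratio of 1.13 (edgeR adjusted p = 0.0329), and chr11:58500001-62500000 with chr12:109500001-110500000, at 1.11 (edgeR adjusted p = 0.0161). The SCR AMO replicates of these 2 pairs were far apart. The first had 59 and 3 contacts in SCR AMO, 1.16 and 0.319 times the expected count, and 36 and 17 in L1 AMO. The second had 53 and 19 in SCR AMO, 0.696 and 1.31 times, and 38 and 23 in L1 AMO. With the genome-wide offset these 2 pairs had log2 ratios of 0.93 and 0.90, and neither was called.

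The A-A block pairs with the highest contact in SCR AMO were not among the calls. Of 1790 A-A pairs with at least 50 contacts in every sample, chr2:179500001-181500000 with chr4:153000001-155500000 had the highest O/E, 8.46 and 7.94 in SCR AMO and 7.23 and 6.73 in L1 AMO, with genome-wide balancing. Against trans coverage the same pair stood at 3.61 and 3.69 times the expected count in SCR AMO and 3.83 and 4.28 times in L1 AMO, and its log2 ratio was 0.14 ± 0.13 (edgeR adjusted p = 0.899). The pair chr2:163000001-169000000 with chr4:147500001-149500000 had an O/E of 5.61 and 5.07 in SCR AMO and 5.89 and 3.72 in L1 AMO. The other 3 joined chr2:179500001-181500000 to chr15:96500001-103000000 and chr4:147500001-149500000 to blocks of chromosomes 5 and 8. Both of these recurrent blocks lie near the distal ends of their chromosomes. The log2 ratios of these 5 pairs were 0.13 to 0.31 with the trans-coverage offset and -0.28 to -0.04 with the genome-wide offset, none of them called.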

How the data were processed

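The authors processed read pairs of small-scale in situ Hi-C with HiC-Pro (2.7.1b in the submitters' processing notes, where CASAVA and mm9 are also named, and another release in the methods) and deposited the counts of contacts, not normalized, between bins of 500 kb. The state of duplicate removal is not given in the sources used here. The 2 matrices of each L1 AMO sample were summed. Bin numbers were assigned to the mm9 chromosomes in order (5322 bins) and checked at 19 chromosome ends. A bin was kept where its coverage was at least 0.1 of its chromosome's median in each sample. Iterative correction, the observed/expected maps and eigenvector 1 were computed with numpy 2.4.6, and counts were tested with edgeR 4.0.16 (quasi-likelihood) and DESeq2 1.42.0 in R 4.3.3, for features with a mean count of at least 10. The SE of a log2 ratio is its size divided by the square root of the F statistic.

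Depth was 22252054 to 112381720 contacts per sample, or a mean of 0.442 to 2.19 counts per trans bin pair. Replicates of a group are separate transfections according to the methods, and p-values measure only the spread between these samples. Members, lists and tests were chosen with earlier results of these data known. The text names the 5 highest and 5 lowest blocks of at least 2 bins by SCR AMO mean O/E, up to 5 bins and block pairs with the largest rise and fall past the threshold with groups apart, the 5 highest block pairs with at least 50 counts in every sample, and for autosomes and their pairs the extremes. Alternatives were other balancing, expected values, member shares, eigenvectors, coverage limits, depth, offsets, TMM, DESeq2, count filters and each sample left out. Genes, gene lists and sequences of bins were not used here, since the reference tables are of another build, and the H3K9me3 ChIP-seq samples are not analysed here.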

Additional observations from a re-analysis of the deposited data

How the results depend on the processing

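The direction of the A-A difference (L1 AMO minus SCR AMO, O/E) held under other members, eigenvectors, coverage limits, expected values, thinning and either L1 AMO matrix, and reversed with every scaling on trans contacts alone: 0.0587 with trans-only balancing and 0.122 with no balancing. Added after the data were seen, trans-only balancing gave 0.0581 without chromosomes 1, 4, 6, 9 and 14, 0.0857 with the top 10% as members, 0.0817 with the L1 AMO eigenvector, and 0.0583 and 0.0590 with the first or second L1 AMO matrix alone. With samples left out, the difference ran from -0.229 to -0.0711. Also added later, trans-only balancing left 95 strong A bins, 0 autosomes and 5 pairs of autosomes lower with groups apart, against 505, 8 and 83.

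The edgeR counts of strong A bins, A-A block pairs and A-A sums higher in L1 AMO (557, 138 and 120) became 6, 29 and 1 with the genome-wide offset, where 116, 39 and 55 were lower (for strong A bins a smaller share than of all bins), and 0, 0 and 0 without those 5 chromosomes as well. With the trans-coverage offset they were 278, 40 and 62 without the 5 chromosomes, for which fewer features were tested. DESeq2 called 326, 19 and 84. With samples left out they ran from 206 to 470, from 31 to 112 and from 65 to 111. The log2 ratio of the bin chr1:129500001-130000000 went to 0.10 with the genome-wide offset, where it was not called (edgeR adjusted p = 0.238). Its A-A O/E was lower in both L1 AMO samples under both scalings.

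The labels share replicate numbers without saying what a number marks. Deviations of same-numbered samples correlated at 0.0492 over the strong A bins. With the replicate block, edgeR called 492 strong A bins, 111 block pairs and 130 sums higher, and the paired A-A difference was -0.150. The block ended the call of the bin chr1:129500001-130000000 (edgeR adjusted p = 0.0637). It also ended those of the named block pairs of chromosomes 5 and 10 (edgeR adjusted p = 0.118) and of 11 and 12 (edgeR adjusted p = 0.0775). Depth limits single block pairs: 35.9% of A-A bin pairs had no contact in SCR AMO replicate 2.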
